A study of Mus musculus with 6 samples.

Results

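The proteasome subunits of mouse bone marrow were examined as the probe sets whose platform annotation gives exactly 1 gene symbol, that symbol being Psma, Psmb, Psmc, Psmd, Psme, Psmf or Psmg followed by a number alone. This rule took 100 of the 45037 probe sets of the arrays and 47 of the 18193 genes that a mean over such probe sets gives. It left out 3 probe sets of Psmc3ip and Psme3ip1, whose products bind subunits. It also left out the only probe set that lists Psme2, because that probe set lists Psme2b too, so 4 of the 5 inducible genes Psmb8, Psmb9, Psmb10, Psme1 and Psme2 were measured. Expression was measured on 6 Affymetrix oligonucleotide arrays, 3 of ASXL1-MT marrow and 3 of mock marrow. The ASXL1-MT samples are labelled as bone marrow of ASXL1-MT-transplanted mice with a myelodysplastic syndrome-like disease. ASXL1 encodes a chromatin regulator that is often mutated in human myeloid neoplasms, and the labels do not say which mutant form was used. The mock samples are labelled as marrow of mock-transplanted mice serving as normal controls, and what these mice received is not stated. The vector or promoter, the donor cells, the strain, age and time of sampling, and whether mice were pooled, are not stated for either group. The series text describes magnetic depletion of cells bearing CD3e, B220 or TER-119 for both groups, while the sample labels name that depletion for mock samples only. Nothing states that replicates were taken from different mice, so the p-values reflect the spread among these arrays alone, and that spread may be technical.

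The proteasome degrades proteins tagged with ubiquitin. Its 20S core is a stack of rings of alpha subunits (Psma genes) and beta subunits (Psmb genes), and the beta subunits encoded by Psmb5, Psmb6 and Psmb7 hold the cutting sites. The 19S cap, made of ATPases (Psmc genes) and other subunits (Psmd genes), binds ubiquitin chains and feeds the protein into the core. Interferon gamma and some blood and immune cell types bring in Psmb8, Psmb9 and Psmb10, which replace Psmb5, Psmb6 and Psmb7 to form the immunoproteasome, and the PA28 activator of Psme1 and Psme2. The peptides cut by this form feed antigen presentation on MHC class I.

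Promoters are shown for the inducible gene Psme1 and for the constitutive catalytic genes Psmb5 and Psmb6, the inducible and constitutive catalytic genes whose windows held a match to the motifs searched. Each window runs from 250 bases before to 50 bases after the start in RefSeq's GRCm38.p6 assembly. The windows lie at chr14:55578244-55578543 (plus strand) for Psme1, chr14:54617946-54618245 (minus strand) for Psmb5 and chr11:70525107-70525406 (plus strand) for Psmb6. Capitals mark a match, on either strand, to 1 of 2 motifs, which are GAAA followed after any 2 bases by GAAA (resembling the interferon-stimulated response element) and TGACNNNGC (resembling the antioxidant response element).
Psme1: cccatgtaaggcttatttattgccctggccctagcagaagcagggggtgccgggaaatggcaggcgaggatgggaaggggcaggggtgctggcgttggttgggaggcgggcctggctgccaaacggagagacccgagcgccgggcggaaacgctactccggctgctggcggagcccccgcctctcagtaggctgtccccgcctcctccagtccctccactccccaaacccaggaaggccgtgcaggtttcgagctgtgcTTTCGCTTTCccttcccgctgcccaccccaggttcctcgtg
Psmb5: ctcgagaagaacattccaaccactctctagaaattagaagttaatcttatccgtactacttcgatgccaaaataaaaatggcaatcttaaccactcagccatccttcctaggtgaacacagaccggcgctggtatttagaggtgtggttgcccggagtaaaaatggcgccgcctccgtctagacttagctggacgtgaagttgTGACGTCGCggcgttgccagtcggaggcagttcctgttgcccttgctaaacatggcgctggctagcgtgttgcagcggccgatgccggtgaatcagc
Psmb6: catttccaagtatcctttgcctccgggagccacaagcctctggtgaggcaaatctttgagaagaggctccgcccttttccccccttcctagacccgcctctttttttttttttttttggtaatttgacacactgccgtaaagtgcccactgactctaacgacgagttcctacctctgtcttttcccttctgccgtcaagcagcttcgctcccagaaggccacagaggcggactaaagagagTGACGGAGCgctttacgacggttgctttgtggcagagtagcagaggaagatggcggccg
The Psme1 window held the interferon-response-like letters from position 10 relative to the start. The antioxidant-like letters began at position -47 in Psmb5 and at position -9 in Psmb6. Windows were at hand for 39 of the 47 genes. The interferon-response-like letters were in the windows of 5 of these 39 genes (12.8%), against 3.44% of all 32851 windows of that length. Of the 5, Psme1 is inducible, and Psmb3, Psmd4, Psmd9 and Psmg4 are not. The antioxidant-like letters were in 6 genes (15.4%), against 12.4% of windows. Members were counted as genes, with 41 windows among the 39, and the table as single windows, so these shares are unlike in unit. The differences were not tested. Each printed window held 1 match. The letters are a description of the sequence, and no binding was measured.

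The deposited values are logs, read here as log2, from which each probe set's own median across the 6 arrays had been subtracted. They show differences between arrays and, apart from a coarse brightness class used below, not how strongly a gene was expressed. Fewer cells of a type cannot be told apart from less RNA per cell. A change below means the average of the ASXL1-MT arrays less that of the mock arrays, with a standard error (SE) and a p-value of limma's test adjusted over all genes or all probe sets, called at 0.05. Of all 45037 probe sets, 8.1% were called (2130 or 4.73% higher, 1516 or 3.37% lower), and of all 18193 genes 11.4% were called (6.63% higher, 4.75% lower). After quantile normalization the probe set calls split into 1751 higher and 1906 lower, and after cyclic loess into 1626 higher and 1894 lower. The median change of all genes was 0.11, and it was 0.03 once the array medians were made equal, so a change of about 0.1 is no larger than that of the typical gene. Centring removed the levels apart from that class, and the labelled myeloid identity was not checked against the presence or absence of markers.

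Proteasome genes as a whole moved little. As genes, 1 of 47 rose (Psmg2) and 1 fell (Psma8), or 4.26% called where 11.4% of all genes were called. As probe sets, 3 of 100 rose and 1 fell, or 4% against 8.1%. The median absolute change was 0.20 over the 47 genes and 0.49 over all genes, and the median change was 0.12 against 0.11. The groups did not overlap in 15 of the 47 genes, where 37.9% of all genes did not overlap. Of these 15, 14 were higher in ASXL1-MT (23.5% of all genes) and 1 was lower (14.4% of all genes). Among probe sets 31 of 100 did not overlap, against 35.4% of the table, with 24 higher (21.7% of the table) and 7 lower (13.7% of the table). A smaller share of members was called than in the table at large. The share that did not overlap was close to that of the whole table, but not within the bright class described below. Those that did not overlap were mostly higher in ASXL1-MT, on deposited values where every ASXL1-MT array median lay above every mock one. Of the 47 genes 34 had a change above 0, as did 10304 of all 18193 genes. The 34 became 30 with array medians made equal, 29 after quantile normalization and 26 after cyclic loess.

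Replicate spread was small for most subunits. By a rule that reads brightness from the rounding of the deposited logs, 68 of the 100 probe sets were bright, which corresponds to a MAS5 signal of at least 256 on the 3 highest arrays if the base is 2, and 45 of the 47 genes had a bright probe set. The SD within groups had a median of 0.11 over these 68, against 0.18 over all 17205 bright probe sets, and 0.50 over the other 32. The median absolute change of the 68 was 0.14, against 0.42 over all bright probe sets. The groups did not overlap in 27 of the 68 (39.7%), with 23 higher and 4 lower. Of all 17205 bright probe sets 55.4% did not overlap, with 5743 higher and 3790 lower. When bright probe sets were tested alone, 12 of the 68 rose and 0 fell, or 17.6%, where 39.4% of all bright probe sets were called (23.6% higher, 15.8% lower). At the gene level that fit called 10 of 45 as higher, or 22.2%, where 43.8% of the 9421 genes with a bright probe set were called (27.6% higher). The 10 were 2 of the 4 inducible genes (Psmb8 and Psme1), 5 of the 31 constitutive subunits of the core and cap (Psma4, Psma5, Psma7, Psmb1 and Psmd13) and the chaperones Psmg2, Psmg3 and Psmg4.

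**Figure D1:**
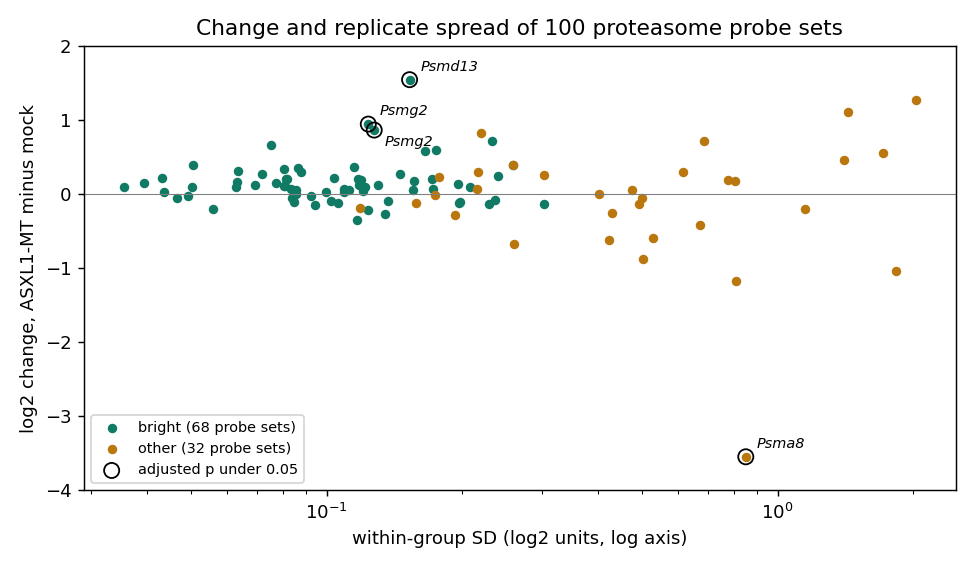
Change (ASXL1-MT minus mock, log2) against the SD within groups (log2 units on a log axis) for the 100 proteasome probe sets, 1 point each, with bright probe sets in green, the others in orange, and the 4 called probe sets ringed. Most points lie near 0, and the called ones are a Psmd13 probe set at 1.54, a pair for Psmg2 at 0.86 and 0.94, and the Psma8 probe set at -3.55, outside the bright class.

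The inducible genes came out higher in ASXL1-MT by small amounts, and none passed the test over all genes. Overlap was read from the deposited values, where the array medians were themselves higher in ASXL1-MT, and was not scored with array medians made equal. In the 4 measured genes every ASXL1-MT array lay above every mock array, a pattern found as a higher value in 23.5% of all genes. Their median change was 0.31, or 0.20 relative to all genes, against 0.09, or -0.02 relative to all genes, for the 31 constitutive subunits of the 20S and 19S particles. Of those 31, 20 had a change above 0 and limma called 0, while 2 were higher and 0 lower by a p under 0.05 before adjustment. Limma called 0 of the 4 inducible genes too, with 2 higher and 0 lower before adjustment. By the same unadjusted p, 3301 of all 18193 genes were higher and 1992 were lower. The inducible median was 0.22 with array medians made equal, 0.21 under quantile scaling and 0.19 under cyclic loess, and all 4 genes stayed above 0 in each. The constitutive median in these settings was 0.012, 0.0024 and -0.016, the last with its sign turned.

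Psmb8 encodes the inducible subunit that takes the place of Psmb5. Its values were 0.23, 0.13 and 0.24 in ASXL1-MT arrays, against -0.33, -0.23 and -0.26 in mock arrays. The lowest ASXL1-MT array was above the highest mock array. The change was 0.47 (1.39-fold, SE 0.12), and the adjusted p = 0.0701 missed the threshold. Its probe sets had changes of different size, 0.67 for 1444619_x_at (adjusted p = 0.0509) and 0.28 for 1422962_a_at (adjusted p = 0.359). The suffix _x_at marks probes that can match other transcripts as well. As a gene, Psmb8 passed when bright probe sets were tested alone (adjusted p = 0.00695), under trend and robust settings (adjusted p = 0.0306), and when its least variable probe set stood for it (adjusted p = 0.0142). It missed in 6 of 6 fits with 1 array left out, where the change ran from 0.44 to 0.51 (adjusted p from 0.141 to 0.201). Psmb8 also missed with array medians made equal (change 0.39, adjusted p = 0.112). The change was 0.38 after quantile normalization (adjusted p = 0.120) and 0.35 after cyclic loess (adjusted p = 0.144).

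Psme1 encodes the alpha chain of PA28, a ring that opens the core. Its single probe set gave 0.16, 0.15 and 0.26 in ASXL1-MT arrays, against -0.23, -0.15 and -0.21 in mock arrays, with no overlap. The change was 0.39 (1.31-fold, SE 0.12, adjusted p = 0.103). Psme1 passed in the same 3 settings, with bright probe sets alone (adjusted p = 0.0115), trend and robust settings (adjusted p = 0.0353) and the least variable probe set per gene (adjusted p = 0.0457). It missed in 6 of 6 fits with 1 array left out, at changes of 0.36 to 0.42 (adjusted p from 0.174 to 0.269). Psme1 also missed with array medians made equal (change 0.31, adjusted p = 0.171). The change was 0.29 both after quantile normalization (adjusted p = 0.188) and after cyclic loess (adjusted p = 0.201).

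Psmb10 encodes the inducible counterpart of Psmb7. It had 0.09, 0.08 and 0.10 in ASXL1-MT arrays, against -0.20, -0.11 and -0.08 in mock arrays. The groups stood apart, but the change was only 0.22 (SE 0.12, adjusted p = 0.303). Psmb9, the inducible counterpart of Psmb6, had 0.02, 0.07 and 0.11 in ASXL1-MT arrays, against -0.17, -0.09 and -0.02 in mock arrays. Its lowest ASXL1-MT value and highest mock value nearly met, and its change was 0.16 (SE 0.13, adjusted p = 0.468). The gap, from -0.017 in mock replicate 3 to 0.017 in ASXL1-MT replicate 1, was smaller than that between their array medians, -0.053 and 0.021. Making the array medians equal would therefore put this ASXL1-MT array below this mock array for Psmb9. In the RefSeq gene order Psmb8 and Psmb9 lie on chromosome 17 around Tap1, a peptide transporter gene of MHC class I presentation, with Tap2 next to Psmb8. Tap1 had -0.77, 0.00 and -1.30 in ASXL1-MT arrays, against 0.17, 0.42 and -0.16 in mock arrays, so the groups overlapped (change -0.83, adjusted p = 0.215). Its direction turned with bright probe sets alone, where the change was 0.21 (adjusted p = 0.114).

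The constitutive catalytic genes had changes close to the median of all genes. Psmb5, with chymotrypsin-like activity, had -0.06, 0.07 and 0.06 in ASXL1-MT arrays, against -0.23, -0.06 and 0.08 in mock arrays (change 0.09, adjusted p = 0.728). Psmb6, with caspase-like activity, had 0.09, -0.02 and 0.10 in ASXL1-MT arrays, against -0.10, -0.01 and 0.01 in mock arrays (change 0.09, adjusted p = 0.679). Psmb7, with trypsin-like activity, had 0.29, -0.25 and 0.22 in ASXL1-MT arrays, against 0.00, 0.00 and -0.01 in mock arrays (change 0.09, adjusted p = 0.79). The groups overlapped in all 3 genes, and ASXL1-MT replicate 2 was low for Psmb7. Psmb5 and Psmb6 turned to just below 0 after cyclic loess.

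Each inducible subunit was set against the subunit it replaces within the same array, which removes a shift common to the array. Psmb8 minus Psmb5 was 0.30, 0.06 and 0.18 in ASXL1-MT arrays, against -0.10, -0.16 and -0.34 in mock arrays. The groups did not overlap, with a difference of 0.38, and the exact two-sided permutation p = 0.10 was the smallest that 3 against 3 arrays allow (adjusted over the 3 pairs, p = 0.30). Psmb9 minus Psmb6 differed by 0.06 between ASXL1-MT and mock (exact permutation p = 0.30, adjusted p = 0.45). Psmb10 minus Psmb7 differed by 0.12 (exact permutation p = 0.90, adjusted p = 0.90), and this difference was -0.04 without ASXL1-MT replicate 2. No pair could pass at this number of arrays.

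**Figure D2:**
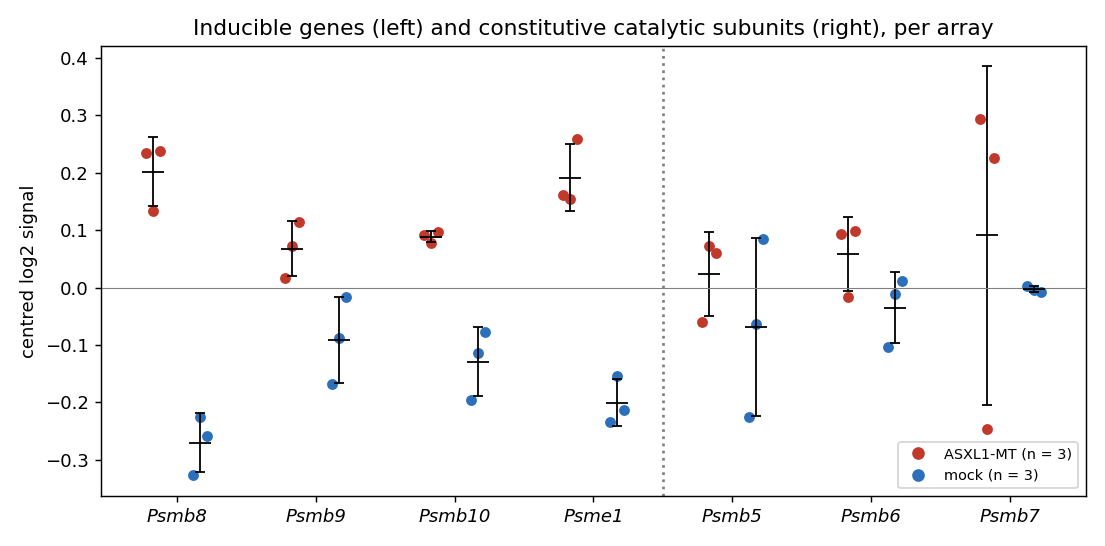
Centred log2 signal per array for the 4 measured inducible genes (left of the dotted line) and the 3 constitutive catalytic genes (right), with ASXL1-MT arrays in red left of mock arrays in blue and black bars for the mean and SD (n = 3 each). The red points lie above all blue points for the inducible genes and mix with them for Psmb5, Psmb6 and Psmb7.

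In the rest of the core, 7 alpha subunits had changes from -0.29 for Psma6 to 0.34 for Psma4, and none of them passed over all genes. With bright probe sets tested alone, Psma4 (adjusted p = 0.0264), Psma7 (adjusted p = 0.0334) and Psma5 (adjusted p = 0.0387) passed as higher. Psma4, a ring subunit, had 0.12, 0.10 and 0.23 in ASXL1-MT arrays, against -0.27, -0.21 and -0.10 in mock arrays, which do not overlap (adjusted p = 0.157). The smallest change was 0.03 for Psma3, which was -0.05 with array medians made equal. Among the 4 structural beta subunits Psmb1 had a change of 0.26 (adjusted p = 0.458) and Psmb4 of 0.17 (adjusted p = 0.44), and Psmb3 had -0.06 (adjusted p = 0.814). The Psmb1 probe sets ranged from -0.28 to 0.72, and its bright one alone gave 0.36, which passed among bright probe sets (adjusted p = 0.0256).

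Psma8, which encodes the alpha subunit of the testis form of the core, was the only proteasome gene called as lower in the fit over all genes. It had -1.59, -1.05 and -3.09 in ASXL1-MT arrays, against 2.19, 1.05 and 1.67 in mock arrays. The groups did not overlap, and the change was -3.55 (SE 0.61, adjusted p = 0.0264), while 0.572% of all genes had a larger absolute change. Its single probe set 1427170_at was outside the bright class, the SD was 1.06 in ASXL1-MT and 0.57 in mock, and whether its values lie near background was not tested. The gene passed in 0 of 6 fits with 1 array left out, with a change from -3.98 to -2.96 and an adjusted p from 0.0587 to 0.0796. Psmb11, the catalytic subunit of the thymus, was also outside the bright class, with -1.14, -0.01 and 2.68 in ASXL1-MT arrays, against -0.22, 0.39 and 0.01 in mock arrays. These overlapped, and ASXL1-MT replicate 3 set the sign of its change, which was 0.46 (adjusted p = 0.808) and -0.63 without that array.

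Psmg2 was the only proteasome gene called as higher in the fit over all genes. It encodes a chaperone that pairs with the product of Psmg1 to assemble the alpha ring. It had 0.32, 0.25 and 0.39 in ASXL1-MT arrays, against -0.49, -0.32 and -0.25 in mock arrays. The groups were far apart for their spread, and the change was 0.68 (1.60-fold, SE 0.14, adjusted p = 0.0381). Both of its bright probe sets passed on their own, with 0.94 for 1448212_at (adjusted p = 0.0322) and 0.86 for 1425373_a_at (adjusted p = 0.0386), while 1444264_at, outside the bright class, had 0.23 (adjusted p = 0.489). The gene's change was 0.60 with array medians made equal (adjusted p = 0.0541), 0.58 under quantile scaling (adjusted p = 0.0527) and 0.56 under cyclic loess (adjusted p = 0.0641). It was 0.59 with plain _at probe sets alone (adjusted p = 0.0776), and in each of these settings it missed the threshold. With 1 array left out it ran from 0.61 to 0.73 and passed in 0 of 6 fits (adjusted p from 0.0802 to 0.139).

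All 7 assembly chaperones had a change above 0, with a median change of 0.20 (0.10 above the median of all genes), and 1 of 7 was called (14.3% against 11.4% of all genes). The groups did not overlap for 4 of them, Psmg1, Psmg2, Psmd5 and Psmd10, all higher, where 23.5% of all genes did so. The lowest ASXL1-MT and highest mock values were 0.03 and -0.03 for Psmd5, and 0.01 and -0.01 for Psmd10. Overlap was scored on the deposited values, where every ASXL1-MT array median lay above every mock one, and not with array medians made equal. Psmg1, the partner of Psmg2, had 0.03, 0.10 and 0.04 in ASXL1-MT arrays, against -0.24, -0.16 and -0.03 in mock arrays, a change of 0.20 (adjusted p = 0.377). Psmg4, whose product acts with that of Psmg3 on the alpha ring, had a change of 0.38 (adjusted p = 0.511), which was 0.03 without mock replicate 1. The bright probe sets of Psmg3 (1424087_at, change 0.72) and Psmg4 (1435431_at, change 0.58) did not overlap between groups, but they missed the threshold over all probe sets (adjusted p = 0.103 and 0.112). Psmd9, a chaperone of the 19S ATPases, had 0.06 (adjusted p = 0.845) and -0.02 with array medians made equal.

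**Figure D3:**
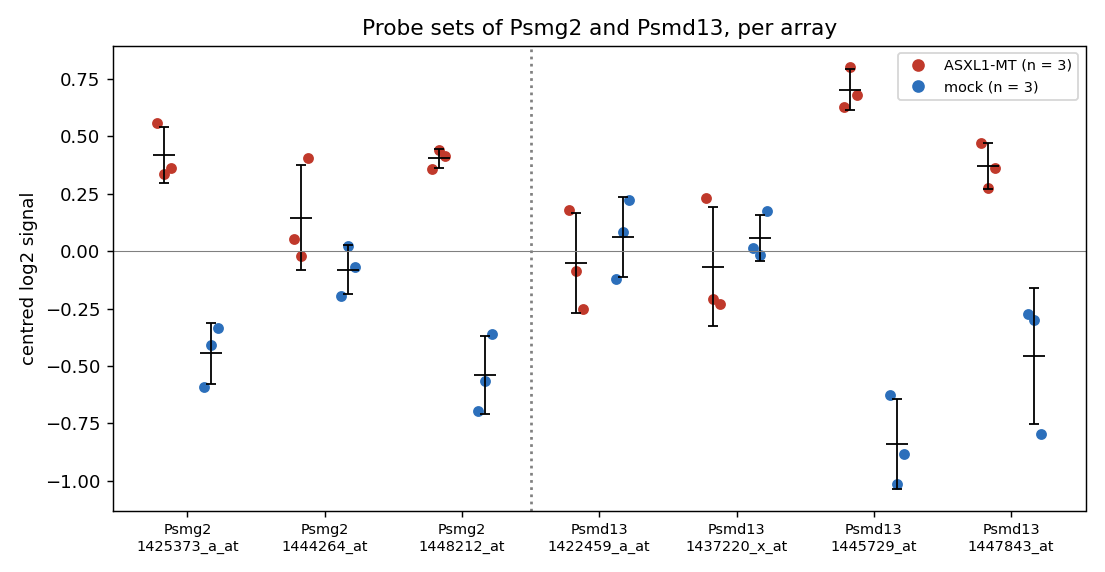
Centred log2 signal per array for the 3 probe sets of Psmg2 and the 4 of Psmd13, with ASXL1-MT arrays in red left of mock arrays in blue and black bars for the mean and SD (n = 3 each). The groups stand apart in Psmg2 1425373_a_at and 1448212_at and in Psmd13 1445729_at and 1447843_at, and overlap in the other 3.

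No ATPase of the 19S cap passed, and 3 of the 6 had a change above 0. Psmc1 had the largest, 0.35 (SE 0.60, adjusted p = 0.751), from 1416005_at at 0.15 and from 1439392_x_at at 0.56, which was outside the bright class and had an SE of 1.22. Psmc4 had 0.23 (adjusted p = 0.404) with groups that did not overlap. Psmc3 had the smallest, -0.06 (adjusted p = 0.817).

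Among the 11 other 19S subunits none was called as a gene, and 7 had a change above 0. Psmd13, a subunit of the lid, had 0.38, 0.20 and 0.14 in ASXL1-MT arrays, against -0.25, -0.31 and -0.32 in mock arrays. The groups did not overlap, and the change of 0.53 missed the threshold (SE 0.13, adjusted p = 0.0635). From bright probe sets alone the gene had 0.43 and passed (adjusted p = 0.0209). That mean came from probe sets that disagreed. Probe set 1445729_at had 0.63, 0.80 and 0.68 in ASXL1-MT arrays, against -0.63, -1.01 and -0.88 in mock arrays, and was called higher at 1.54 (2.92-fold, SE 0.17, adjusted p = 0.0174). It passed in 2 of 6 fits with 1 array left out, where its change ran from 1.46 to 1.65. Probe set 1447843_at had 0.83 (adjusted p = 0.0705). The changes were -0.11 for 1422459_a_at (adjusted p = 0.757) and -0.13 for 1437220_x_at (adjusted p = 0.729), both bright and both with overlapping groups. The files do not say which part of the transcript each probe set reads.

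Psmd2, a scaffold of the cap, had the largest gene change there, 0.62 (SE 0.48, adjusted p = 0.462), the mean of 1443477_at (1.11, outside the bright class) and the bright 1415831_at, which had 0.13 (adjusted p = 0.664). Psmd12, a lid subunit, had the smallest, 0.01 (adjusted p = 0.985). The probe sets of Psmd11 and Psmd7, both lid subunits, also split by more than 1 log2 unit with signs that differed, from -1.04 to 0.29 for Psmd11 and from -1.17 to 0.30 for Psmd7. Neither gene passed, at -0.15 (adjusted p = 0.756) for Psmd11 and -0.25 (adjusted p = 0.506) for Psmd7. In all, 12 of the 26 genes with several probe sets had probe set changes of both signs.

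Of the other activators and the inhibitor none passed. Psme3, the nuclear PA28 gamma, had 0.47 (SE 0.54, adjusted p = 0.63), with probe set changes from -0.12 to 1.27, and -0.04 without mock replicate 1. Psme4, which encodes the activator PA200, had -0.18 (adjusted p = 0.52), with probe set changes from -0.88 to 0.20. Psmf1, an inhibitor of the core, had 0.28 (adjusted p = 0.322). Its probe set 1424370_s_at had 0.39, 0.23 and 0.12 in ASXL1-MT arrays, against -0.12, -0.44 and -0.50 in mock arrays, which do not overlap, at a change of 0.60 (adjusted p = 0.109).

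**Figure D4:**
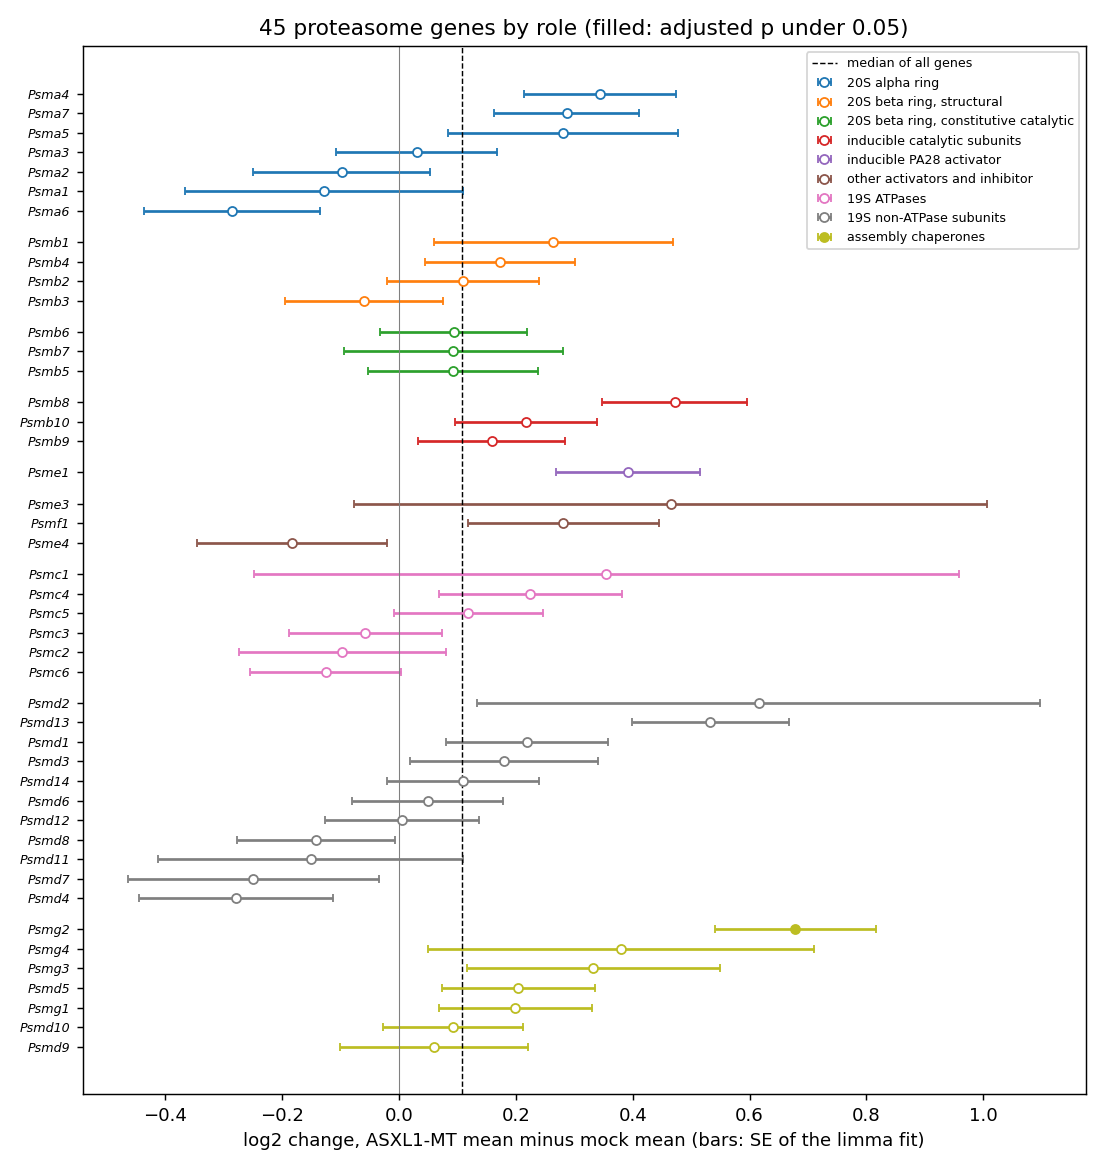
Change (ASXL1-MT mean minus mock mean, log2) of 45 proteasome genes grouped by role, with bars for the SE of the fit, filled points for an adjusted p under 0.05 and a dashed line at the median of all genes, 0.11. Psma8 (-3.55) and Psmb11 (0.46), outside the bright class, are not drawn. Of the genes drawn only Psmg2 is filled.

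Genes around the proteasome were taken from lists written for this comparison. Of 13 measured partners that dock on the particle or assemble it, 1 rose and 0 fell (7.69% called, against 11.4% of all genes). Their median change was 0.26. The riser was Ube3c, a ubiquitin ligase bound to the proteasome, with 0.21, 0.42 and 0.51 in ASXL1-MT arrays, against -0.64, -0.77 and -0.23 in mock arrays. Its change was 0.93 (adjusted p = 0.0448), 0.85 with array medians made equal (adjusted p = 0.0577), and it passed in 0 of 6 fits with 1 array left out (adjusted p from 0.0561 to 0.146). Of 5 measured regulators of proteasome genes, 1 fell and 0 rose (20% called, against 11.4% of all genes). It was Nfe2l2, the NRF2 factor that binds antioxidant response elements, with -0.44, -1.66 and -1.59 in ASXL1-MT arrays, against 0.78, 0.75 and 0.64 in mock arrays. Its change of -1.95 (adjusted p = 0.0315) was -0.29 when its least variable probe set stood for it (adjusted p = 0.406), and it passed in 1 of 6 fits with 1 array left out (adjusted p from 0.0225 to 0.108). By a limma p under 0.05 before adjustment, 3301 of all 18193 genes were higher and 1992 were lower. Of 6 measured ubiquitin and p97 genes, limma called 0, with 0 higher and 1 lower by that unadjusted p. The smallest p-values there were those of Ube2d3, a ubiquitin-conjugating enzyme (change -0.42, adjusted p = 0.0869), and Nsfl1c, a p97 cofactor (change 0.36, adjusted p = 0.221).

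Genes that share the inducible route were set beside the immunoproteasome. Of 12 genes of MHC class I presentation, 0 were called by limma, and the median change was -0.13. At an unadjusted limma p under 0.05, 3301 of all 18193 genes were higher and 1992 lower. Of the 12, 2 were higher and 0 lower by that measure. The 2 were Erap1, which trims peptides (0.39, adjusted p = 0.113), and the chaperone Canx (0.35, adjusted p = 0.148). With bright probe sets tested alone, 43.8% of the 9421 genes with a bright probe set were called (27.6% higher). In that fit 3 of the 12 passed as higher and 0 as lower, a share higher near that of all such genes. They were Canx (adjusted p = 0.0147), Erap1 (adjusted p = 0.0155) and Tapbpl, a relative of the peptide-loading factor tapasin, which had 0.46 there (adjusted p = 0.0179) but -0.07 over all its probe sets. Erap1 also passed under trend and robust settings (adjusted p = 0.0456). Of 12 measured interferon pathway genes and factors that induce the immunoproteasome, 2 rose and 0 fell, 16.7% against 11.4% of all genes. Irf8, an interferon regulatory factor of monocytes and dendritic cells, had 0.83, 0.77 and 0.73 in ASXL1-MT arrays, against -1.12, -0.67 and -0.88 in mock arrays (change 1.67, adjusted p = 0.0106). It passed in 5 of 6 fits with 1 array left out, missing without ASXL1-MT replicate 3 (adjusted p = 0.0555). Nlrc5, the activator of MHC class I genes, had 0.43, 0.30 and 0.29 in ASXL1-MT arrays, against -0.44, -0.29 and -0.29 in mock arrays (change 0.69, adjusted p = 0.0335). It lost the call under quantile scaling (adjusted p = 0.0527), under cyclic loess (adjusted p = 0.0537) and in 6 of 6 fits with 1 array left out. Irf1, another inducer, had a change of -0.23 (adjusted p = 0.47). In the fit of bright probe sets alone, Jak1 of this list passed as lower (change -0.39, adjusted p = 0.0146). Irf8 (adjusted p = 0.00106), Nlrc5 (adjusted p = 0.00327), Ifnar1 (0.57, adjusted p = 0.0334) and Ifnar2 (0.60, adjusted p = 0.0217) passed there as higher.

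Several cell type marker lists and the MHC class II pathway list differed between the same arrays. Over all genes 6.63% rose and 4.75% fell. Of 6 measured MHC class II genes, 6 rose. Among them were Ciita, their activator (change 2.80, adjusted p = 0.0116), H2-Ab1 (2.75), H2-Eb1 (2.71) and H2-Aa (2.70), and with 1 array left out Ciita passed in 5 of 6 fits and each of these H2 genes in 1. The class II list mean ran from 0.89 to 1.21 in ASXL1-MT arrays, against -1.94 to -1.03 in mock arrays. Of 6 dendritic cell markers, 4 rose and 0 fell, and their mean ran from 0.65 to 1.04 in ASXL1-MT arrays, against -2.07 to -0.49 in mock arrays. Of 9 neutrophil markers, 3 fell and 0 rose, with a mean from -0.41 to -0.25 in ASXL1-MT arrays, against 0.17 to 0.42 in mock arrays. The 3 that fell were Mmp9, Cxcr2 and Elane, and the other 6 did not pass. Of 6 stem and progenitor markers 4 rose and 1 fell, with Flt3 counted among the risers of both this list and the dendritic cell list, and of 5 monocyte and macrophage markers none passed. In the other lists 2 of 5 T and NK cell markers, 1 of 5 B cell markers and 1 of 4 erythroid markers rose, and 2 of 4 megakaryocyte markers fell, with no call the other way. The inducible mean ran from 0.11 to 0.18 in ASXL1-MT arrays, against -0.23 to -0.14 in mock arrays. The part of these cell types in the values of the inducible genes was not tested.

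**Figure D5:**
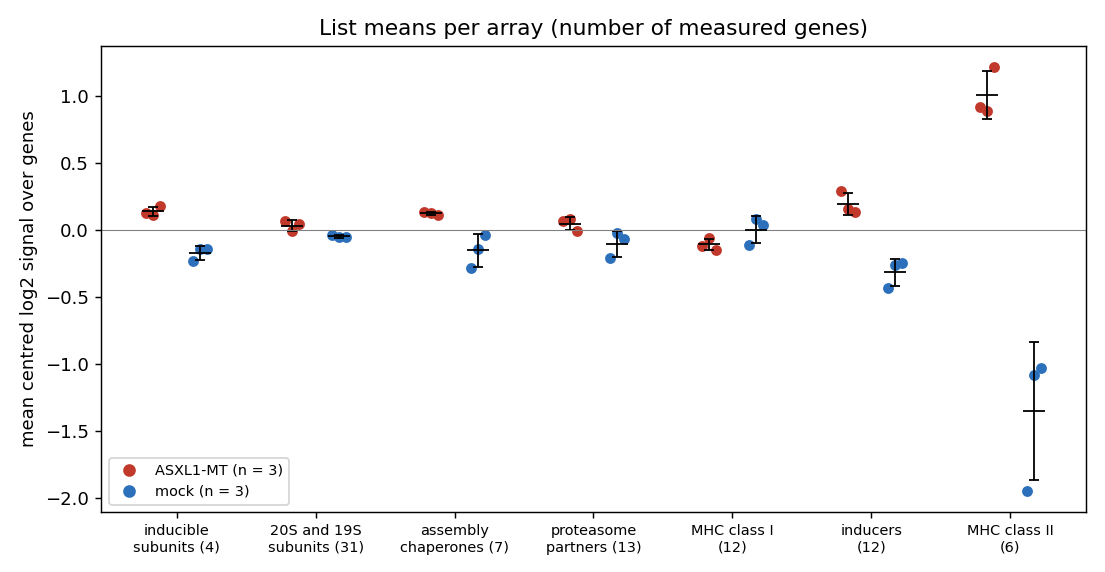
Mean centred log2 signal over the measured genes of 7 lists, per array, with ASXL1-MT arrays in red left of mock arrays in blue and black bars for the mean and SD (n = 3 each). The inducible subunits differ by a small amount beside the 6 MHC class II genes, and MHC class I genes overlap between the groups.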

How the data were processed

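Per the submitters' processing notes the authors made signals with MAS5. The deposited log2 values are log signals of 6 arrays centred per probe set; log base and centring are not stated and were read from the values (row medians 0 within 5e-07). Array columns were matched to groups by sample titles. Symbols came from the platform annotation (34945 probe sets with 1 symbol, 932 with several, 9160 with none here). All 47 member genes matched RefSeq by gene ID. Models were fitted with limma 3.58.1 (lmFit, then eBayes; R 4.3.3) to all probe sets, or all gene means, with group as the only term and Benjamini-Hochberg adjustment, and were tested on simulated data. Bright probe sets have their 3 highest arrays on the rounding step of logs of 8 and above (20 binary places, tolerance 0.1 step), and some dimmer probe sets can pass this rule. The number of arrays limits the precision.

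Members and lists were chosen with earlier results of these data known. Named were the inducible and constitutive catalytic genes, every called member, the 2 largest changes and the smallest per role, members whose probe sets split in sign by over 1, and the called genes, at most 4, or the 2 lowest p-values of each pathway list. Tap1, Tapbpl, Irf1, Flt3, Psmg1, Psma5, Psma6, Psma7, Psmd4, Psmd5, Psmd10, Mmp9, Cxcr2, Elane and probe sets of Psmg3 and Psmf1 were named after their values were seen. So were Ifnar1, Ifnar2 and Jak1. Alternatives were equal array medians, quantile and cyclic loess normalization, trend and robust settings, bright or plain _at probe sets, the least variable probe set per gene, a replicate block and single arrays left out. Another motif and 1 gene of the inducer list are not reported here.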

Additional observations from a re-analysis of the deposited data

How the results depend on the processing

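The number of called proteasome probe sets, 4 as reported, was 8 with trend and robust settings, 12 among bright probe sets and 0 to 1 with an array left out. Called proteasome genes, 2 as reported, were 1 with equal array medians, quantile normalization or cyclic loess, 5 with trend and robust settings or the least variable probe set, 10 among bright probe sets and 0 with each array left out. All called probe sets, 3646 as reported, were 5816, 6778 and 66 to 1142 in the trend, bright and left-out settings. Called pathway genes, 10 as reported, were 22 among bright probe sets, 19 with the least variable probe set, 4 with plain _at probe sets and 0 to 6 with an array left out. The inducible median of 0.31 became 0.22, 0.21 and 0.19 in the 3 normalizations and 0.22 on plain _at probe sets, where Psmb8 has none. The constitutive median of 0.09 became 0.012, 0.0024, -0.016 and 0.059 in these settings.

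Replicate numbers showed no sign of pairing the arrays when read over all 45037 probe sets, of which 27832 lay outside the bright class. Deviations of same-numbered arrays had correlations of -0.0088, -0.012 and -0.0090. The replicate block left 0 calls in all probe sets, proteasome probe sets, proteasome genes and pathway genes. That model fits more terms to the same arrays, so its lack of calls cannot decide on pairing.

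Some members turned sign, none of them called as reported. Psma3 had -0.051, -0.057 and -0.091, Psmd12 -0.076, -0.084 and -0.089 and Psmd9 -0.021, -0.027 and -0.051 with equal medians, quantile normalization and cyclic loess. Psmb5 had -0.011 after quantile normalization and -0.024 after loess, and Psmb6 -0.0033 after loess. On plain _at probe sets Psma3 had -0.0099 and Psmb1 -0.28. On bright probe sets and with the least variable probe set Psmd7 had 0.13 and Psmd9 -0.13, and Psme4 had 0.11 on bright probe sets and 0.19 with the least variable one, where Psme3 had -0.12. With an array left out, changes ran from -0.039 to 0.071 for Psma3, -0.63 to 1.28 for Psmb11, -0.0086 to 0.26 for Psmb7, -0.097 to 0.0082 for Psmc3, -0.057 to 0.056 for Psmd12, -0.056 to 0.16 for Psmd9 and -0.040 to 0.80 for Psme3. Psmb10 minus Psmb7 ran from -0.038 to 0.22. The causes were not tested.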
